A study of Mus musculus with 17 samples.

Results

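The genes described here are 9 genes of MHC class I antigen presentation and Cd274, which encodes PD-L1: the heavy chains H2-K1 and H2-D1, their light chain B2m, the peptide transporter subunits Tap1 and Tap2, the loading factor Tapbp, the immunoproteasome subunits Psmb8 and Psmb9, the class I transactivator Nlrc5, and Cd274 itself. They were taken by Ensembl identifier from the 55450 genes of the bulk table and followed through 7 groups of cultured cells and 3 single-cell libraries. All 10 were present in both data types. The cells came from female FVB/NJ MMTV-PyMT mice of 10 to 12 weeks, in which the mouse mammary tumor virus promoter drives polyoma middle T antigen in mammary epithelium. Tumor-bearing mammary fat pad (MFP), bone marrow (BM), lymph node (LN) and lung were dissociated, cultured for about 1 month and sorted as EpCAMhigh cells with low or high CD44, an adhesion receptor for hyaluronan. The bulk libraries formed 7 groups of 2. One was MFP, for which the records give no CD44 status, and the other 6 were the CD44low or CD44high cells of an organ (LN, BM or lung). Both libraries of a group were clonal isolates of different mice, so each group rests on 2 clones selected in culture. The single-cell libraries, 1 each, were CD44high cells from lymph node (lymphH) and from lung (lungH), and CD44low cells from lung (lungL).

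MHC class I molecules show peptides from inside the cell to CD8+ T cells. Proteins are cut by the proteasome, whose catalytic subunits Psmb5, Psmb6 and Psmb7 can be replaced by the inducible Psmb8, Psmb9 and Psmb10. The peptides are then carried into the endoplasmic reticulum by a dimer of Tap1 and Tap2, and loaded with the help of tapasin (Tapbp) onto a heavy chain that has paired with beta-2 microglobulin. Nlrc5 raises transcription of several of these genes from the promoter, interferon gamma induces nearly all of them, and PD-L1 is a ligand on the tumor cell that restrains T cells through PD-1. Altered class I levels are often described in tumors that metastasize.

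Of the 10 genes, 7 lie in the major histocompatibility complex on mouse chromosome 17 (mm10). H2-K1 runs from 33996017 to 34000347 on the minus strand, and Psmb9 (34181987 to 34187764, minus strand), Tap1 (34187553 to 34197225), Psmb8 (34197721 to 34201454) and Tap2 (34203527 to 34216321) form one tight block, with the last 3 on the plus strand. Tapbp (33915899 to 33929292) and H2-D1 (35262730 to 35267499) flank this block on the plus strand. The other genes are unlinked: B2m on chromosome 2 (122147686 to 122153083), Nlrc5 on chromosome 8 (94434356 to 94527272) and Cd274 on chromosome 19 (29367455 to 29388095), all on the plus strand. All 10 are annotated as protein coding.

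RefSeq promoter windows of 300 bases (250 before and 50 from the annotated start, build GRCm38.p6) were available for 8 of the 10 genes. The levels of H2-K1 and H2-D1 came apart below, although their windows are nearly alike. Tap1 shares most of its window with Psmb9, and the only comparison in which both changed was lung CD44high against CD44low. Psmb8, of the same block, changed from MFP in most groups. For these reasons 4 of the windows are printed. They read 5′ to 3′ on the strand of the gene, and capitals mark matches, on either strand, to short motifs: the kB palindrome GGGATTCCC, known as an NF-kB site, the CRE core TGACG, known from the X box that the Nlrc5 enhanceosome uses, the CCAAT box CCAAT, bound by NF-Y, and the gamma-activated sequence TTCNNNGAA, known from promoters that interferon gamma induces. The H2-K1 window is chr17:34000298-34000597, that of H2-D1 chr17:35262844-35263143, that of Tap1 chr17:34187306-34187605 and that of Psmb8 chr17:34197945-34198244.
H2-K1: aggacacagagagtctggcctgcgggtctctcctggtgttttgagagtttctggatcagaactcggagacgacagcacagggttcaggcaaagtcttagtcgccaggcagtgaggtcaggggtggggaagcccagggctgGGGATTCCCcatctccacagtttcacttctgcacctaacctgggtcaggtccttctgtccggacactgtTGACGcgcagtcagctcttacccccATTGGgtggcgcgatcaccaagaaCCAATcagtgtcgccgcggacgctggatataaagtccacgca
H2-D1: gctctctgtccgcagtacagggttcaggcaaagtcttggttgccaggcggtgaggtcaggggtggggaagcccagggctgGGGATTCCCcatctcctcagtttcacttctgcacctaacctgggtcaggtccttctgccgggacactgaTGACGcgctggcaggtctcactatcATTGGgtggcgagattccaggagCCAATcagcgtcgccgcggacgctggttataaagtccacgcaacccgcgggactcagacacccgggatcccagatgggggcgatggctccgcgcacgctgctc
Tap1: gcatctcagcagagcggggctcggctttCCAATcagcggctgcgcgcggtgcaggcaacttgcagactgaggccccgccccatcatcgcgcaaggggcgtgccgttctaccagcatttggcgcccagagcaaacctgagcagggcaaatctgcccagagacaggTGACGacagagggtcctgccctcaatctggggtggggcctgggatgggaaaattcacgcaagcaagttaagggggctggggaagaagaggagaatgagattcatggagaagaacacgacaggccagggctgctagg
Psmb8: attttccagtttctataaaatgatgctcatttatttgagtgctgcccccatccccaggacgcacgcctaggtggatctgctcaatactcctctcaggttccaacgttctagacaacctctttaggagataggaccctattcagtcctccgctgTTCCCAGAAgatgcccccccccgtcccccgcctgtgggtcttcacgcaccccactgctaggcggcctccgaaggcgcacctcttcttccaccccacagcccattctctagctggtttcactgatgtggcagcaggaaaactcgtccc
The H2-K1 and H2-D1 windows were identical at 211 of 239 aligned bases (88.3%), and both hold the kB palindrome, 1 CRE core and 2 CCAAT boxes in the same order. The kB palindrome is rare, with a match in 0.37% of the windows of 27025 genes, against 21% for the CRE core and 37.9% for the CCAAT box. The CRE core lay 101 bases before the annotated start of H2-D1 (−101 to −97, with the start at 0) and −41 to −37 in H2-K1, whose annotated start lies further upstream. Tap1 and Psmb9 are arranged head to head, and 275 of the 300 bases of their windows are the same DNA read on opposite strands, with 1 CRE core and 1 CCAAT box in it. Psmb8, which lies just beyond Tap1, had neither of these letters in its window and held 1 match to the gamma-activated sequence (−97 to −89), a motif present in 8.47% of windows. Among the windows not printed, B2m held the CRE core, the CCAAT box and the only matches among the 8 genes to the core of the interferon regulatory factor element (GAAA repeated after a gap of 2 bases, GAAACTGAAA in B2m, found in 3.49% of windows) and to the NF-kB core (GGG and TTTCC with 2 bases between them, GGAAAGTCCC on the other strand in B2m, 1.62% of windows), Tapbp held CCAAT boxes alone, and the Cd274 window matched none of the motifs searched. These are matches of letters only, and none was measured as bound.

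Before the results, 3 properties of the libraries bear on them. The lung cells were sorted on EpCAM, yet Epcam was at 0 and 0 TPM (transcript abundance scaled for length and depth) in lung CD44low and at 0.23 and 0.86 TPM in lung CD44high cells, against 315 to 941 TPM in the other 10 libraries. The summed level of 10 epithelial markers was 2.43 and 2.67 TPM in lung CD44low and 15.9 and 87.6 TPM in lung CD44high cells, against 2150 to 8432 TPM elsewhere. That of 8 fibroblast markers was 4708 and 5117 TPM in lung CD44low and 85.7 and 195 TPM in lung CD44high cells, against at most 19.9 TPM elsewhere, with decorin (Dcn) at 4091 and 4315 TPM in lung CD44low cells. In lung CD44high cells too, Dcn made most of the sum. There Dcn, Pdgfra and Pdgfrb were higher than in MFP (6.65, 2.98 and 2.19 on the log2 scale). Col1a1, Col1a2, Col3a1, Lum and Thy1 did not pass the test described below. The 12 leukocyte markers summed to 40.4 and 41.4 TPM in lung CD44low cells, of which Lyz2 made 35.2 and 34.8, and to 4.36 to 23.9 TPM elsewhere. The defining marker Ptprc (CD45) did not exceed 0.20 TPM in any library, and 7 endothelial markers summed to at most 0.30 TPM. The 2 lung groups therefore differ from the other groups in lineage markers as well as in organ, and which of these goes with each class I difference cannot be told apart. In bulk libraries, fewer cells of a type and less RNA per cell cannot be told apart either. Last, BM CD44low replicate 2 stood apart from its replicate (Spearman correlation 0.896 over genes, the lowest of the 7 pairs, the others 0.919 to 0.975).

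**Figure D1:**
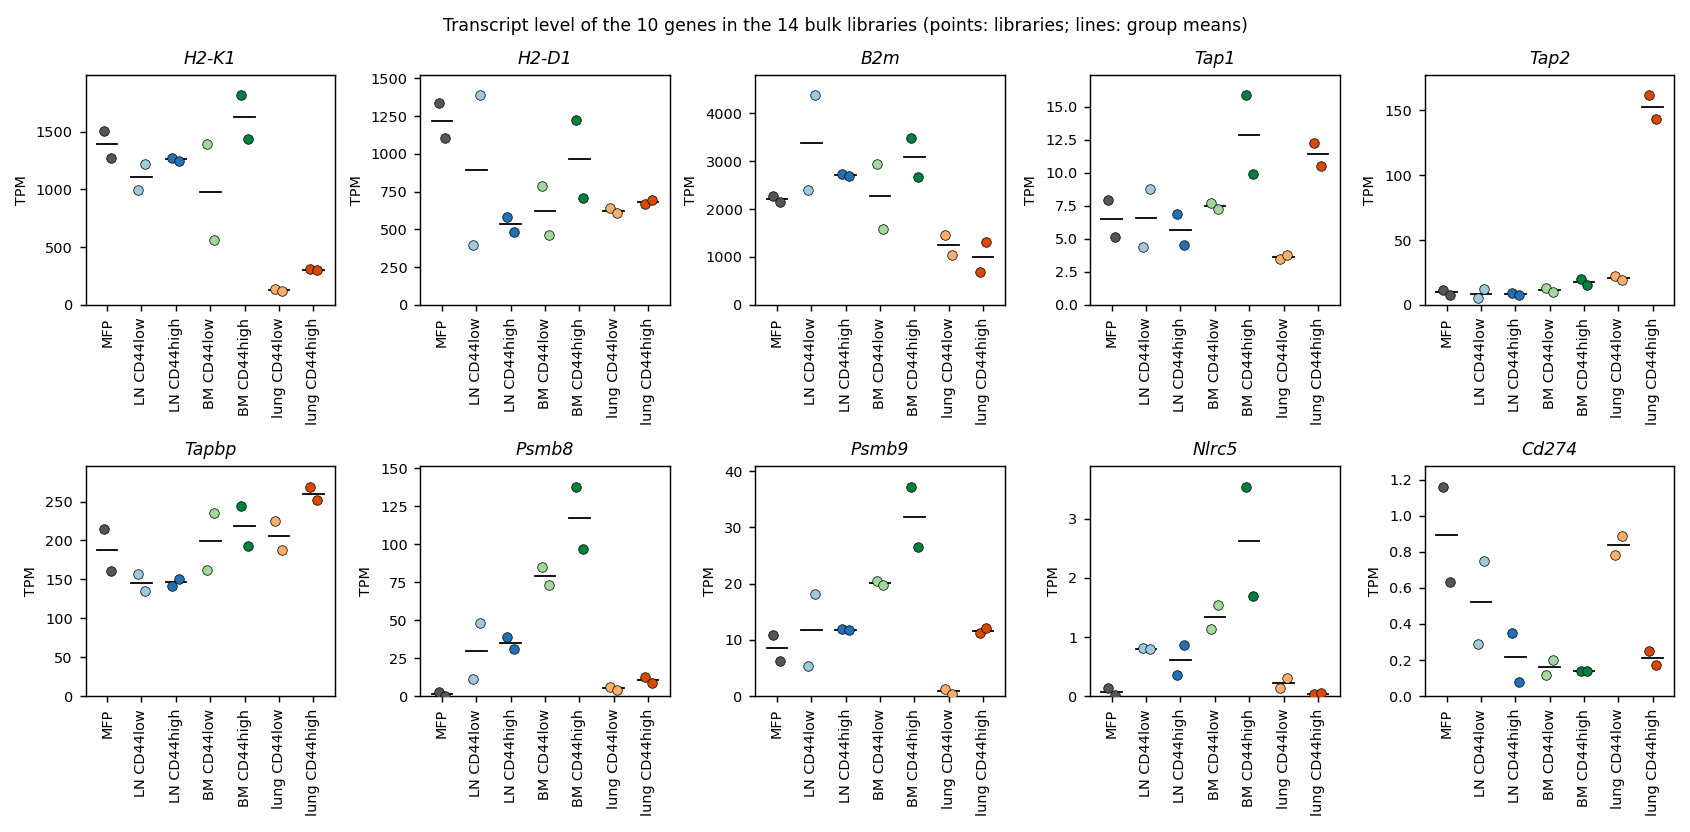
Level in TPM of each of the 10 genes (1 panel per gene, vertical axis from 0) in the 14 bulk libraries, grouped along the horizontal axis. Points are libraries and lines are means of the 2 libraries, and H2-K1 is lowest in the 4 lung libraries while Tap2 is highest in the 2 lung CD44high libraries.

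The heavy chain H2-K1 set the lung libraries apart from all others. It was at 1509 and 1271 TPM in MFP, 995 and 1220 in LN CD44low, 1275 and 1244 in LN CD44high, 1394 and 565 in BM CD44low, and 1812 and 1433 TPM in BM CD44high cells. In lung it was at 141 and 123 TPM in CD44low and 310 and 298 TPM in CD44high cells, so every lung library lay below every other library and the lung groups did not overlap each other. H2-D1, the second classical heavy chain of this locus, did not follow it. Its levels were 1335 and 1107 TPM in MFP, 398 and 1387 in LN CD44low, 581 and 484 in LN CD44high, 786 and 461 in BM CD44low, 1222 and 710 in BM CD44high, 640 and 607 in lung CD44low, and 666 and 695 TPM in lung CD44high cells. The lung libraries thus sat in the middle of its range, and no comparison called it. The ratio of H2-K1 to H2-D1 was 0.880 to 2.57 in the 10 libraries of MFP, LN and BM, 0.221 and 0.203 in lung CD44low, and 0.465 and 0.429 in lung CD44high cells.

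Both genes share sequence with other class I genes, which limits how far a read can be assigned. Of the 31-base words in the annotated transcripts of H2-K1, 22.8% also occur in another gene, and for H2-D1 the share is 26.7%, in each case most often in the other of the pair. FVB/NJ mice also carry a different H2 haplotype from the C57BL/6 reference, so the division of reads between the heavy chains is uncertain. When the TPM of H2-K1, H2-D1 and the other listed class I heavy chains, leaving out the more distant Mr1, Cd1d1 and Fcgrt, was added up as 1 feature, chosen as an alternative after seeing the data, it was still lower than MFP in lung CD44low (log2 fold change −1.75 ± 0.37 SE, adjusted p = 0.0039) and in lung CD44high cells (−1.33 ± 0.37, adjusted p = 0.019). That sum did not separate the 2 lung groups from each other (0.42 ± 0.37, adjusted p = 0.45). Here and below, a fold change is a difference of mean log2(TPM + 1), smaller than the true change for genes of low level, and adjusted p is limma's with Benjamini-Hochberg adjustment over the 15348 tested genes, called changed under 0.05.

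B2m, the light chain of every class I molecule, was the most abundant of the 10 in all 14 libraries. It was at 2282 and 2158 TPM in MFP, 2407 and 4372 in LN CD44low, 2739 and 2690 in LN CD44high, 2949 and 1589 in BM CD44low, 3487 and 2678 in BM CD44high, 1464 and 1039 in lung CD44low, and 697 and 1319 TPM in lung CD44high cells. The lung libraries were the 4 lowest, although the highest of them lay close to BM CD44low replicate 2. B2m exceeded the sum of H2-K1 and H2-D1 in 11 of the 14 libraries.

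Tap1 and Tap2 encode the subunits of one dimeric transporter, and their levels came apart in lung. Tap1 was at 7.97 and 5.11 TPM in MFP, 4.38 and 8.80 in LN CD44low, 6.88 and 4.51 in LN CD44high, 7.71 and 7.26 in BM CD44low, 15.9 and 9.91 in BM CD44high, 3.44 and 3.76 in lung CD44low, and 12.3 and 10.5 TPM in lung CD44high cells. Tap2 was at 11.6 and 7.81 TPM in MFP, 5.01 and 12.1 in LN CD44low, 8.99 and 7.87 in LN CD44high, 13.2 and 9.82 in BM CD44low, and 20.04 and 15.1 TPM in BM CD44high cells. It reached 22.4 and 18.9 TPM in lung CD44low and 161 and 143 TPM in lung CD44high cells, above every other library in the case of lung CD44high. The Tap2 to Tap1 ratio was accordingly 1.14 to 1.75 in the 10 libraries of MFP, LN and BM, 6.51 and 5.01 in lung CD44low, and 13.1 and 13.6 in lung CD44high cells. The antisense genes that overlap Tap2 exons, Gm20496 and Gm15821, did not exceed 0.31 TPM in any library, and the library kit does not keep strand, so reads of the 2 strands could not be separated.

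**Figure D2:**
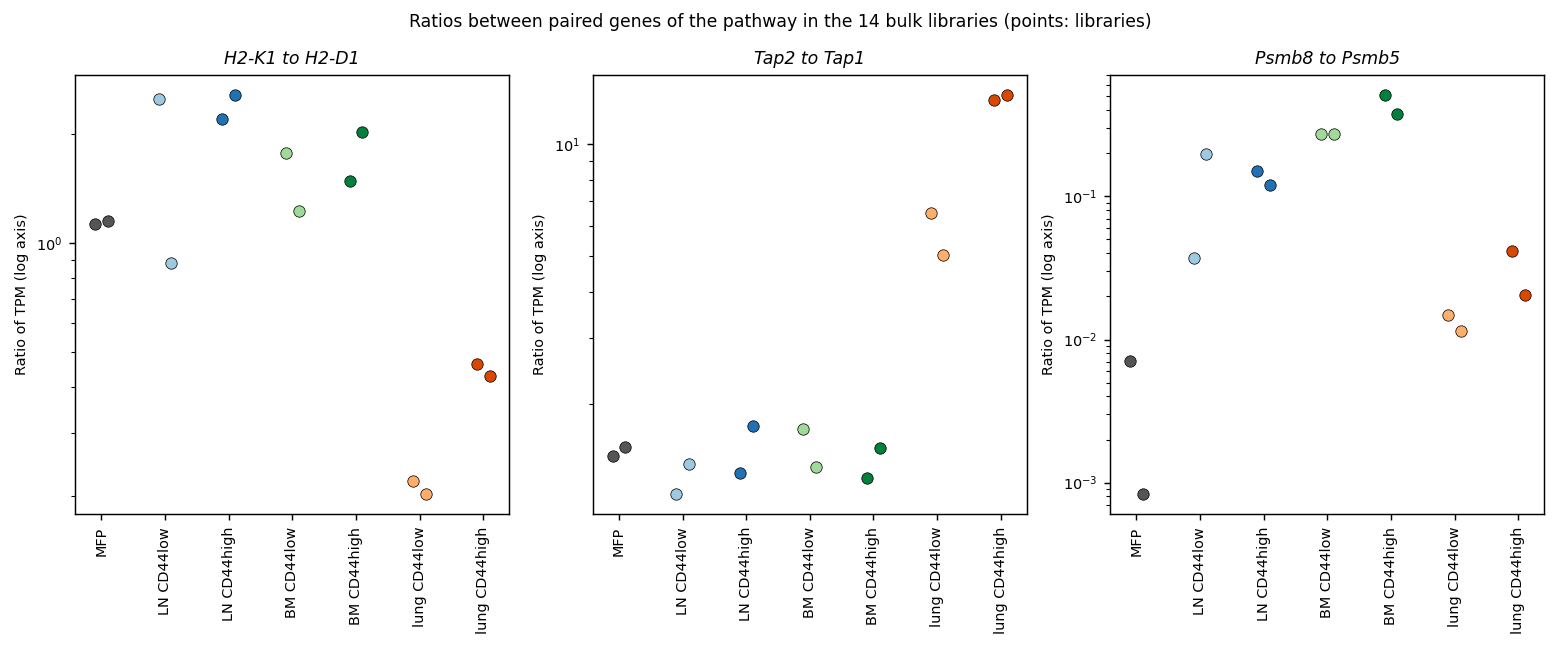
Ratios of TPM between paired genes of the pathway (vertical log axes) in the 14 bulk libraries, with 1 point per library: H2-K1 to H2-D1, Tap2 to Tap1, and Psmb8 to Psmb5. The lung libraries lie at 0.203 to 0.465 for the first ratio and at 5.01 to 13.6 for the second, outside the range of all others, and the third runs from 0.00083 in MFP to 0.515 in BM CD44high cells.

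Tapbp, which holds the empty class I molecule at the transporter, varied least, in relative terms, of the 4 genes above 100 TPM in every library. It was at 214 and 161 TPM in MFP, 157 and 134 in LN CD44low, 142 and 151 in LN CD44high, 163 and 236 in BM CD44low, 245 and 192 in BM CD44high, 225 and 187 in lung CD44low, and 269 and 251 TPM in lung CD44high cells. Groups overlapped broadly, with lung CD44high alone above all the other libraries.

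The immunoproteasome subunits were lowest in different groups. Psmb8 was at 2.60 and 0.29 TPM in MFP, 11.5 and 48.0 in LN CD44low, 39.1 and 30.7 in LN CD44high, 85.1 and 73.4 in BM CD44low, 138 and 96.6 in BM CD44high, 6.32 and 4.24 in lung CD44low, and 12.9 and 8.59 TPM in lung CD44high cells. Both MFP libraries were below all 12 others, and the 4 BM libraries were above all 10 others. Psmb9 was at 10.9 and 6.28 TPM in MFP, 5.29 and 18.2 in LN CD44low, 11.9 and 11.7 in LN CD44high, 20.4 and 19.8 in BM CD44low, 37.2 and 26.6 in BM CD44high, 1.31 and 0.46 in lung CD44low, and 11.2 and 12.1 TPM in lung CD44high cells. Lung CD44low was the low group for this subunit, and BM again held the 4 highest libraries. Psmb9 and Tap1 overlap at their starts on opposite strands, so a few of their reads may be counted for either gene.

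Against the constitutive subunit that each one replaces, the inducible subunits were the lower of the pair in every library. Psmb8 stood at 0.713% and 0.083% of the Psmb5 level in MFP and at 51.5% and 37.4% in BM CD44high cells, with lung CD44low at 1.49% and 1.14%. Psmb9 stood at 1.73% and 0.892% of Psmb6 in MFP, 7.87% and 5.84% in BM CD44high, and 0.217% and 0.0939% in lung CD44low cells. Psmb10, the third inducible subunit, encoded outside this locus, ranged from 7.77% of Psmb7 in MFP replicate 2 to 47.8% in BM CD44low replicate 2. Psmb10 itself was at 43.0 and 25.4 TPM in MFP, 93.3 and 98.5 in BM CD44high, 26.4 and 16.9 in lung CD44low, and 33.4 and 35.3 TPM in lung CD44high cells. Psmb5, Psmb6 and Psmb7 were at 243 to 423, 409 to 704 and 83.9 to 345 TPM over the 14 libraries.

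Nlrc5 was low throughout, at 0.13 and 0.02 TPM in MFP, 0.81 and 0.79 in LN CD44low, 0.36 and 0.87 in LN CD44high, 1.14 and 1.54 in BM CD44low, 3.54 and 1.69 in BM CD44high, 0.14 and 0.30 in lung CD44low, and 0.03 and 0.06 TPM in lung CD44high cells. BM held its 4 highest libraries, and MFP and lung its 6 lowest. Only those 4 libraries reached 1 TPM, so Nlrc5 met the level needed for testing solely through BM, and its calls below that set BM against lower groups are not independent of this filter. Cd274 was low as well, at 1.16 and 0.63 TPM in MFP, 0.29 and 0.75 in LN CD44low, 0.35 and 0.08 in LN CD44high, 0.12 and 0.20 in BM CD44low, 0.14 and 0.14 in BM CD44high, 0.78 and 0.89 in lung CD44low, and 0.25 and 0.17 TPM in lung CD44high cells. Only MFP replicate 1 reached 1 TPM, so Cd274 did not meet the level needed for testing (at least 1 TPM in at least 2 libraries) and its values are given without a test. Pdcd1lg2, which encodes PD-L2, the other ligand of PD-1, did not exceed 0.13 TPM in any library. The other 9 genes were tested.

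Put in order of mean log2 level, neighbouring groups mostly did not differ beyond their spread. Neighbours in this order are the closest groups by construction, so few passing follows in part from the choice of pairs. Over all 189 pairs of groups, counted for each tested gene, 58 passed. No share over all genes is given for these counts. Of 54 neighbouring pairs over the 9 tested genes, 4 passed the test. These were, for H2-K1, BM CD44low above lung CD44high (1.54, adjusted p = 0.0067) and lung CD44high above lung CD44low (1.20, adjusted p = 0.028, and 0.071 with median ratio scaling), for Tap2, lung CD44high above lung CD44low (2.83, adjusted p = 0.00024), and for Psmb9, MFP above lung CD44low (2.34, adjusted p = 0.0031). For H2-D1, B2m, Tap1, Tapbp, Psmb8 and Nlrc5 no step between neighbours passed. With few libraries per group this does not show that the order was gradual, and for Psmb8 the largest step was 1.52 (lung CD44low above MFP).

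The first comparisons ask how the cells of each organ differ from those of the primary site. In LN, 1 of the 9 tested genes changed from MFP in CD44low cells, where 14% of all genes did, and 1 in CD44high cells, where 23.8% did. It was Psmb8 in both, with a log2 fold change of 3.52 ± 0.62 (SE, adjusted p = 0.0042) in LN CD44low and 4.05 ± 0.62 (adjusted p = 0.0014) in LN CD44high cells. The MFP libraries were both far below the LN libraries, and since MFP replicate 2 was at 0.29 TPM the size of this fold depends on the added 1 TPM. Over the 14 fits that left out 1 library it ran from 2.53 (without LN CD44low replicate 2) to 4.51 (without LN CD44low replicate 1) in LN CD44low cells, and leaving out MFP replicate 2 or MFP replicate 1 gave 2.78 and 4.26. In LN CD44high cells it was 3.31 without MFP replicate 2 and 4.79 without MFP replicate 1. Leaving out LN CD44low replicate 2 or either BM CD44high library gave 2 called genes in the first comparison, and leaving out either LN CD44low library gave 2 in the second. With only the 4 compared libraries in the fit, Psmb8 was no longer called in LN CD44low cells (adjusted p = 0.187).

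In BM the called genes were Psmb8, Nlrc5 and, in CD44high cells alone, Psmb9, and their number was near the share of all genes that changed. With median ratio scaling more members were called in BM CD44high cells, as given in the closing section. The median of all tested genes in that comparison was −0.34 before this scaling and 0.04 after it. Nlrc5 was tested through the BM libraries themselves, and without it the counts below are 1 and 2 of 8. In CD44low cells 2 of 9 changed, against 23.2% of all genes (7.16% with an absolute log2 fold change over 2 as well, as Psmb8 had): Psmb8 by 5.22 ± 0.62 (adjusted p = 0.00029) and Nlrc5 by 1.12 ± 0.26 (adjusted p = 0.012). In CD44high cells 3 of 9 changed, against 27% of all genes (8.38% higher, 18.6% lower, and 7.67% past 2 on the log2 scale, as Psmb8 was): Psmb8 by 5.75 ± 0.62 (adjusted p = 0.00014), Psmb9 by 1.80 ± 0.48 (adjusted p = 0.021) and Nlrc5 by 1.70 ± 0.26 (adjusted p = 0.0012). H2-K1, H2-D1 and B2m did not pass in either. Psmb8 was at 4.47 and 5.01 without MFP replicate 2 and at 5.96 and 6.49 without MFP replicate 1 in CD44low and CD44high cells. The call on Nlrc5 in CD44low cells was lost without MFP replicate 2 or BM CD44low replicate 2, leaving 1 called gene, and 4 were called without either LN CD44low library. The call on Psmb9 was lost without MFP replicate 2 or either BM CD44high library, with the fold between 1.44 and 2.16 over the 14 fits that left out 1 library.

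Lung CD44low cells had 3 of 9 genes changed from MFP, in a comparison in which 45% of all genes changed (21.9% higher). H2-K1 fell by 3.38 ± 0.35 (adjusted p = 3.7e-05) and Psmb9 fell by 2.34 ± 0.48 (adjusted p = 0.0031), and Tap2 was called higher, at 1.03 ± 0.36 (adjusted p = 0.039). The Tap2 call held in 4 of the 14 fits that left out 1 library, while those on H2-K1 and Psmb9 held in all 14. Without either LN CD44low library 5 genes were called. In lung CD44high cells 4 of 9 changed, against 36.1% of all genes: Tap2 rose by 3.86 ± 0.36 (adjusted p = 2.9e-05), Psmb8 rose by 2.42 ± 0.62 (adjusted p = 0.013), H2-K1 fell by 2.18 ± 0.35 (adjusted p = 0.00097) and B2m fell by 1.21 ± 0.41 (adjusted p = 0.043). B2m was called in 5 of the 14 fits that left out 1 library, and without MFP replicate 2 or lung CD44high replicate 1 there were 2 calls in all. The Psmb8 difference was 1.68 (adjusted p = 0.11) without MFP replicate 2 and 3.16 without MFP replicate 1. Tap2 and H2-K1 held in all 14. The 6 comparisons share the 2 MFP libraries, so they are not independent of each other.

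**Figure D3:**
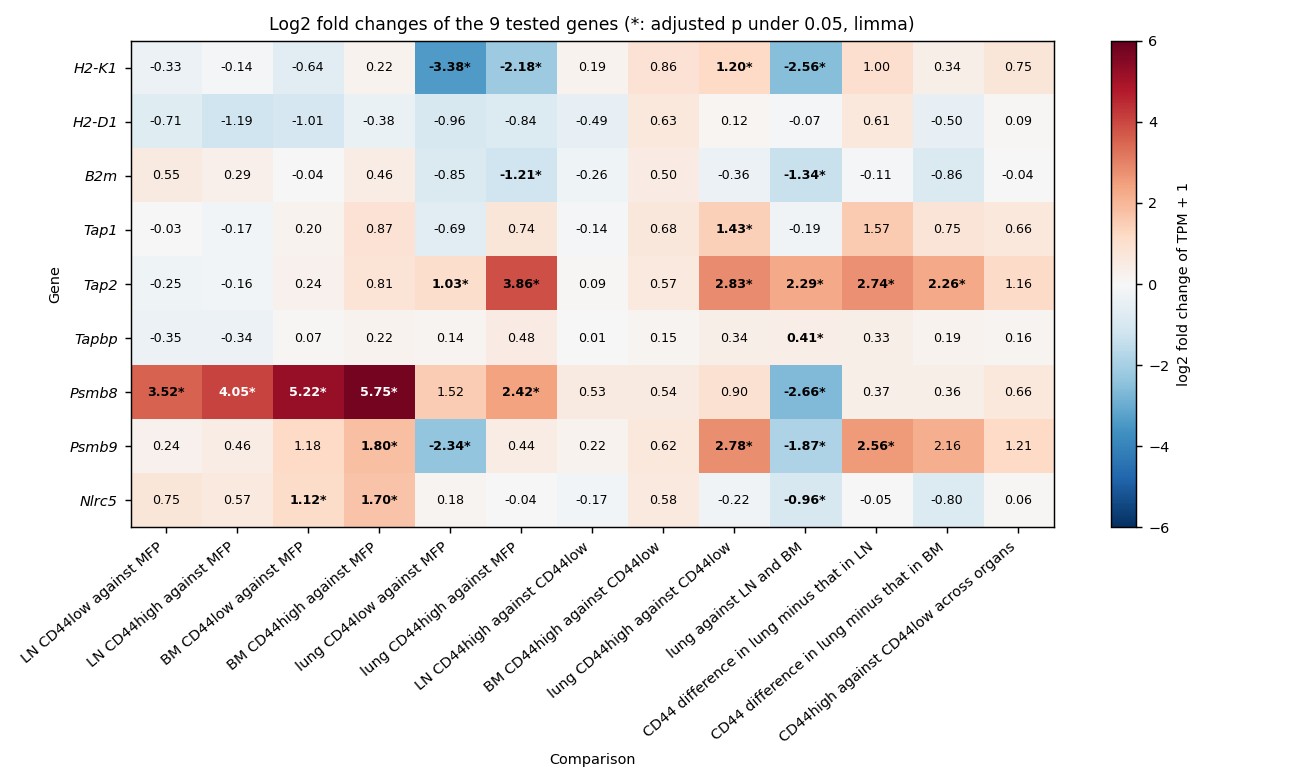
Log2 fold changes of TPM + 1 for the 9 tested genes (vertical axis) in the 13 comparisons (horizontal axis), with red for higher, blue for lower and an asterisk where adjusted p was under 0.05 (limma). Psmb8 is marked in all comparisons with MFP but that of lung CD44low, Tap2 in the 6 comparisons made for lung, and no gene in LN CD44high against CD44low, BM CD44high against CD44low or across organs.

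The second set of comparisons asks whether CD44 status goes with class I genes within an organ. In LN none of the 9 genes changed between CD44high and CD44low cells (0.378% of all genes did, and 0 of the 9 had an unadjusted p under 0.05, against 10.1% of all genes), and in BM none did either (0.15% of all genes, and 2 of the 9, H2-K1 and Nlrc5, had an unadjusted p under 0.05, against 7.4% of all genes). In BM the differences of all 9 genes lay between 0.15 and 0.86, without any passing, and 1 passed when BM CD44low replicate 1 was left out. In lung 4 of 9 changed, against 30.7% of all genes (12.2% higher, 18.5% lower, 11.3% past 2 on the log2 scale), and all 4 were higher in CD44high cells. They were Tap2 (2.83 ± 0.36, adjusted p = 0.00024), Psmb9 (2.78 ± 0.48, adjusted p = 0.0018), Tap1 (1.43 ± 0.36, adjusted p = 0.015) and H2-K1 (1.20 ± 0.35, adjusted p = 0.028). The H2-K1 call was lost with median ratio scaling (adjusted p = 0.071) and without a filter on low TPM (adjusted p = 0.054). H2-D1 (0.12), B2m (−0.36), Tapbp (0.34), Psmb8 (0.90) and Nlrc5 (−0.22) did not pass. Tap2 and Psmb9 were called in all 14 fits with 1 library left out, whereas 2 genes in all were called without lung CD44low replicate 1, lung CD44low replicate 2 or lung CD44high replicate 1. The summed fibroblast markers moved the other way in this comparison (4708 and 5117 TPM in CD44low, 85.7 and 195 TPM in CD44high cells), and their part in the class I differences was not tested.

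The difference of the differences was tested for lung against the other organs. Tap2 had a larger CD44 difference in lung than in LN, by 2.74 ± 0.51 (adjusted p = 0.0043), and than in BM, by 2.26 ± 0.51 (adjusted p = 0.013). Psmb9 had a larger one than in LN, by 2.56 ± 0.68 (adjusted p = 0.026), and the same difference from BM did not pass (2.16, adjusted p = 0.061). The Psmb9 value for LN was 1.75 without LN CD44low replicate 2 and 3.37 without LN CD44low replicate 1, and with median ratio scaling the Tap2 value for BM was no longer called (2.01, adjusted p = 0.059). That makes 2 of 9 genes for lung minus LN, where 19.5% of all genes were called, and 1 of 9 for lung minus BM, where 15.3% were. For the first, Psmb9 was lost and Tap2 left with median ratio scaling and without either LN CD44high library, lung CD44low replicate 2 or either lung CD44high library. For the second, none was left without lung CD44low replicate 2 or lung CD44high replicate 1, and 2 were called without either LN CD44low library or BM CD44low replicate 2. Across the 12 libraries of the 3 organs, with organ in the model, no gene of the 15348 passed between CD44high and CD44low cells (0% called), although 3017 genes, 19.7%, had an unadjusted p under 0.05, among them 4 of the 9: H2-K1 (0.75), Tap1 (0.66), Tap2 (1.16) and Psmb9 (1.21).

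Lung was then set against LN and BM together, 4 libraries against 8. Here 7 of 9 genes changed, 2 higher and 5 lower, and 59.9% of all genes did (35.9% higher, 24% lower, 12.7% past 2 on the log2 scale). H2-K1 was lower by 2.56 on the log2 scale (−2.56 ± 0.21, adjusted p = 5.6e-06), as were Psmb8 (−2.66 ± 0.38, adjusted p = 0.00021), Psmb9 (−1.87 ± 0.29, adjusted p = 0.00039), B2m (−1.34 ± 0.25, adjusted p = 0.0011) and Nlrc5 (−0.96 ± 0.16, adjusted p = 0.00052). The BM libraries through which Nlrc5 was tested are on the higher side here, and without it 6 of 8 genes changed, 4 of them lower. Tap2 was higher (2.29 ± 0.22, adjusted p = 1.5e-05). Tapbp was called higher at 0.41 ± 0.14 (adjusted p = 0.030), but the median of all tested genes was itself 0.20 in this comparison, and after scaling the libraries to a common median ratio the Tapbp difference was 0.13 (adjusted p = 0.45). The Tapbp call was also lost without any one of LN CD44low replicate 2, LN CD44high replicate 1, BM CD44high replicate 2, lung CD44low replicate 1 or either lung CD44high library, and the other 6 calls held in all 14 fits. H2-D1 (−0.07) and Tap1 (−0.19) did not pass.

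The rest of the pathway was examined through lists chosen with earlier results of these data known. Among 11 tested class I heavy chains other than H2-K1 and H2-D1, 4 were higher and none lower in lung CD44high than in lung CD44low cells, with a median of 0.10 against −0.01 over all genes, of which 12.2% were higher and 18.5% lower. The largest were H2-T23 (1.89, adjusted p = 0.0063), the mouse Qa-1 molecule that binds NKG2A, H2-T10 (1.43, adjusted p = 0.0016) and H2-T22 (1.14, adjusted p = 0.0053). Against LN and BM, 4 of the 11 were higher in lung and 3 lower (35.9% and 24% of all genes), led by Fcgrt (3.01, adjusted p = 6e-05), the neonatal Fc receptor chain, and Mr1 (2.22, adjusted p = 0.00095), which presents vitamin B metabolites. Fcgrt was at 101 and 102 TPM in lung CD44low and 71.5 and 58.9 TPM in lung CD44high cells, and at most 25.1 TPM elsewhere.

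Of 10 peptide loading genes, 2 were higher and 3 lower in lung CD44high than CD44low cells, not far from the 12.2% and 18.5% of all genes. The aminopeptidase Erap1, which trims peptides to fit class I, was higher (2.55, adjusted p = 0.00081), at 111 and 54.3 against 15.3 and 10.2 TPM. The chaperone calnexin (Canx) was higher too (1.34, adjusted p = 0.010), and Sec61b, a subunit of the translocon, was lower (−1.63, adjusted p = 0.0014). Against LN and BM, 1 of 10 was higher in lung (Lnpep, a peptidase, 3.24, adjusted p = 0.00012; 35.9% of all genes were higher) and 3 lower (24% of all genes), among them calreticulin (Calr, −1.01, adjusted p = 0.00013) and Tapbpl (−0.72, adjusted p = 0.016), a relative of tapasin.

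Of 7 immunoproteasome partners, none was higher and 4 lower in lung than in LN and BM, where 35.9% of all genes were higher and 24% lower. The PA28 activator gene Psme2 fell by 1.57 (adjusted p = 3.4e-05), Psme2b fell by 1.36 (adjusted p = 0.00018) and Psmb10 fell by 1.34 (adjusted p = 0.00017). In BM CD44high cells against MFP, Psmb10 was higher (1.51, adjusted p = 0.0054), and Psmg1 (−1.56, adjusted p = 0.0020) and Pomp (−1.10, adjusted p = 0.0017), which help assemble proteasomes, were lower. The 14 constitutive proteasome genes had 2 higher and 5 lower in lung than in LN and BM (35.9% and 24% of all genes). The largest were Psmb4 (−1.74, adjusted p = 0.00058), Psmb7 (−1.19, adjusted p = 0.00061) and Psmb2 (−0.82, adjusted p = 0.0022), all lower. Psmb5 was higher (0.48, adjusted p = 0.0057) and Psmb6 did not pass (0.14). In BM CD44high cells none of the 14 was higher than in MFP and 2 were lower (8.38% and 18.6% of all genes).

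Interferon genes moved in both directions. Of 18 tested interferon signalling genes, 9 were higher and 3 lower in lung than in LN and BM (35.9% and 24% of all genes), the largest being Irf2 (2.72, adjusted p = 0.00092) and the interferon alpha receptor chains Ifnar2 (2.20, adjusted p = 6.4e-07) and Ifnar1 (2.12, adjusted p = 0.00035). Between the lung groups 2 of the 18 were higher and 4 lower in CD44high cells (12.2% and 18.5%), the largest being the feedback inhibitors Socs3 (−3.60, adjusted p = 8.8e-05) and Socs1 (−1.97, adjusted p = 0.00073). Among 25 tested interferon response genes, 5 were higher and 1 lower in BM CD44high cells than in MFP (8.38% and 18.6% of all genes), with Isg15 (2.05, adjusted p = 0.024), Igtp (1.66, adjusted p = 0.011) and Ifi47 (1.58, adjusted p = 0.0049) the largest. In lung 5 were higher and 9 lower than in LN and BM, so that 14 of 25 changed where 59.9% of all genes did (35.9% higher, 24% lower), with Isg15 (−2.31, adjusted p = 0.00030), Oasl2 (−2.31, adjusted p = 0.00097) and Oas1a (−1.97, adjusted p = 0.00040) the largest. Between the lung groups 5 were higher and 3 lower in CD44high cells (12.2% and 18.5% of all genes), with Ifit3 (−3.63, adjusted p = 0.0017) and Bst2 (−2.03, adjusted p = 0.014) lower and Ifi47 (1.98, adjusted p = 0.0010) higher. Among these 25, Gbp6 reached 1 TPM only in the BM CD44high and Iigp1 only in the lung CD44low libraries, so they were tested only through those groups. Without them, 23 genes remain, of which 4 were higher and 1 lower in BM CD44high cells than in MFP, 4 higher and 8 lower in lung than in LN and BM, and 5 higher and 2 lower in lung CD44high than CD44low cells. Irf1, of the signalling list, a transcription factor of class I promoters, was at 20.9 and 22.3 TPM in MFP, 31.6 and 31.7 in BM CD44high, 6.90 and 6.52 in lung CD44low, and 16.6 and 13.2 TPM in lung CD44high cells. It was higher in lung CD44high than CD44low cells (1.04, adjusted p = 0.011) and lower in lung than in LN and BM (−1.20, adjusted p = 9.8e-05).

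Of 11 class I promoter factors, 1 was higher and 1 lower in lung CD44high than CD44low cells (12.2% and 18.5% of all genes): Nfkb1 (1.96, adjusted p = 0.0035), at 11.1 and 8.53 against 1.27 and 2.33 TPM, and Rfxap (−3.24, adjusted p = 0.022). Of 3 tested class II genes none differed between the lung groups, and Ciita, the class II counterpart of Nlrc5, was at 0.03 to 1.5 TPM over the 14 libraries.

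Ligands that meet T and NK cells differed between the lung groups in both directions. Of 11 tested checkpoint ligands, 2 were higher and 3 lower in lung CD44high than CD44low cells (12.2% and 18.5% of all genes). Galectin-9 (Lgals9) fell by 4.23 (adjusted p = 6.7e-06), from 98.2 and 102 to 2.66 and 6.86 TPM, and Tnfrsf14 (−3.06, adjusted p = 1.1e-05) and B7-H3 (Cd276, −2.89, adjusted p = 0.00060) were lower as well. Vsir, which encodes VISTA, was at 33.0 and 30.4 TPM in lung CD44low and 150 and 64.1 TPM in lung CD44high cells, against at most 1.07 TPM in every other library. It is among the 11 and was tested only through the lung libraries, so these levels, and the counts that include it, are a description. Of 8 listed NKG2D ligands, stress proteins seen by NK cells, 5 were tested, and 3 of these (Raet1d, Raet1e and H60c) met the level needed only through the lung CD44low libraries, so a count over the list would follow from that filter and none is given. The other 2 were H60b, at 47.3 and 46.7 TPM in lung CD44low and 0 and 0.12 TPM in lung CD44high cells (−5.50, adjusted p = 7.5e-05), and Ulbp1, at 19.1 and 36.4 against 0 and 0.20 TPM (−4.65, adjusted p = 0.0037).

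The genes whose log2 levels followed each member most closely over the 14 libraries were listed as a description. For H2-K1 they were Krt8 (Pearson r = 0.97), Tcirg1 (0.97) and Cd9 (0.97), with Krt8 an epithelial keratin that was near 0 in lung. For Tap1 they were H2-T23 (0.90), H2-T-ps (0.89) and Ifi35 (0.89), for Psmb9 C130071C03Rik (0.93), Cmpk2 (0.93) and Dynlt1c (0.92), and for Psmb8 Agmo (0.95), Gm4544 (0.95) and Slc29a1 (0.94). For Tap2 they were Zfp2 (0.96), Use1 (0.96) and Tmem140 (0.95), for B2m Prelid1 (0.93), Pgm1 (0.92) and Pkm (0.92), and for H2-D1 Acaa1a (0.90), Acp6 (0.88) and Pqbp1 (0.82). For Tapbp they were Gm8942 (0.87), Slc11a2 (0.86) and Gm27782 (0.85), and for Nlrc5 Gm44064 (0.96), 1810010D01Rik (0.94) and Hrc (0.93). The 14 points are 7 pairs of replicates that share their group, so the coefficients rest largely on differences between groups.

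The single-cell libraries gave a second reading of the same genes in 2562 lymphH, 1236 lungH and 348 lungL cells with more than 250 genes and under 10% mitochondrial counts. Each condition was 1 library, so there is no test, and intervals are exact 95% Poisson intervals for counting error only. The libraries held 5287425, 2210623 and 2220759 counts in these cells, with medians of 585, 557 and 4011 counts per cell. The 10 epithelial markers summed to 10.4 per 10000 counts in lymphH (7 of 10 with a count), 4.37 in lungH (4 of 10) and 1.62 in lungL (5 of 10), so their sum in lungH was nearer to that of lymphH than in bulk, although Epcam itself had 936, 3 and 0 counts. The 12 leukocyte markers summed to 0.221, 0.534 and 0.311 per 10000 in the same order. The 8 fibroblast markers summed to 0.115 per 10000 counts in lymphH, 0.267 in lungH and 21.4 in lungL, as in the bulk lung CD44low cells.

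H2-K1 was at 4.78 counts per 10000 (interval 4.598 to 4.97) in lymphH, 1.90 (1.72 to 2.09) in lungH and 1.46 (1.31 to 1.63) in lungL. H2-D1 was at 5.76 (5.56 to 5.97), 5.97 (5.65 to 6.30) and 5.96 (5.65 to 6.29) in the same order, so its 3 intervals overlapped while those of H2-K1 did not. The ratio of lymphH to lungH was 2.52 (2.28 to 2.81) for H2-K1 and 0.966 (0.905 to 1.03) for H2-D1, and that of lungH to lungL was 1.29 (1.12 to 1.502) and 1.001 (0.927 to 1.08). As a mean of per-cell values, H2-K1 was higher in lungL (1.26 per 10000) than in lungH (1.04), so its order between the lung libraries turned with the summary, and lymphH stayed the highest. Within a library the count ratio of H2-K1 to H2-D1 was 0.830 (0.787 to 0.876) in lymphH, 0.318 (0.284 to 0.355) in lungH and 0.246 (0.217 to 0.277) in lungL. As in bulk, the heavy chain that was low in lung was H2-K1 and not H2-D1.

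B2m was at 13.1 (12.8 to 13.4) in lymphH, 16.0 (15.5 to 16.6) in lungH and 10.7 (10.2 to 11.1) per 10000 in lungL. In bulk the 2 lung groups overlapped and did not differ by the test (0.36, adjusted p = 0.57), so no bulk order of the lung cells stands beside this one. Between the CD44high cells of the 2 organs the data types ran opposite ways, with a lymphH to lungH ratio of 0.815 (0.783 to 0.849) against 2739 and 2690 TPM in LN CD44high and 697 and 1319 TPM in lung CD44high cells. Tapbp was at 1.47 (1.37 to 1.57), 1.52 (1.36 to 1.69) and 1.24 (1.096 to 1.39), with all 3 intervals meeting and a lymphH to lungL ratio of 1.19 (1.03 to 1.37). The transporter genes gave few counts. Tap1 had 56, 28 and 13 counts, or 0.106 (0.0800 to 0.138), 0.127 (0.0842 to 0.183) and 0.0585 (0.0312 to 0.1001) per 10000. Tap2 had 21, 53 and 24 counts, or 0.0397 (0.0246 to 0.0607), 0.240 (0.180 to 0.314) and 0.108 (0.0692 to 0.161) per 10000. The level of Tap2 was thus 6.04 times that of lymphH in lungH (3.58 to 10.5) and 2.72 times in lungL (1.45 to 5.14), and as a mean of per-cell values it was 0.142 in lungH and 0.150 in lungL per 10000. The count ratio of Tap2 to Tap1 was 0.375 (0.216 to 0.629) in lymphH, 1.89 (1.18 to 3.11) in lungH and 1.85 (0.903 to 3.95) in lungL, so it too was higher in lungH than in lymphH. Ratios between genes in these 3′ counts are not per length and are compared between libraries only.

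**Figure D4:**
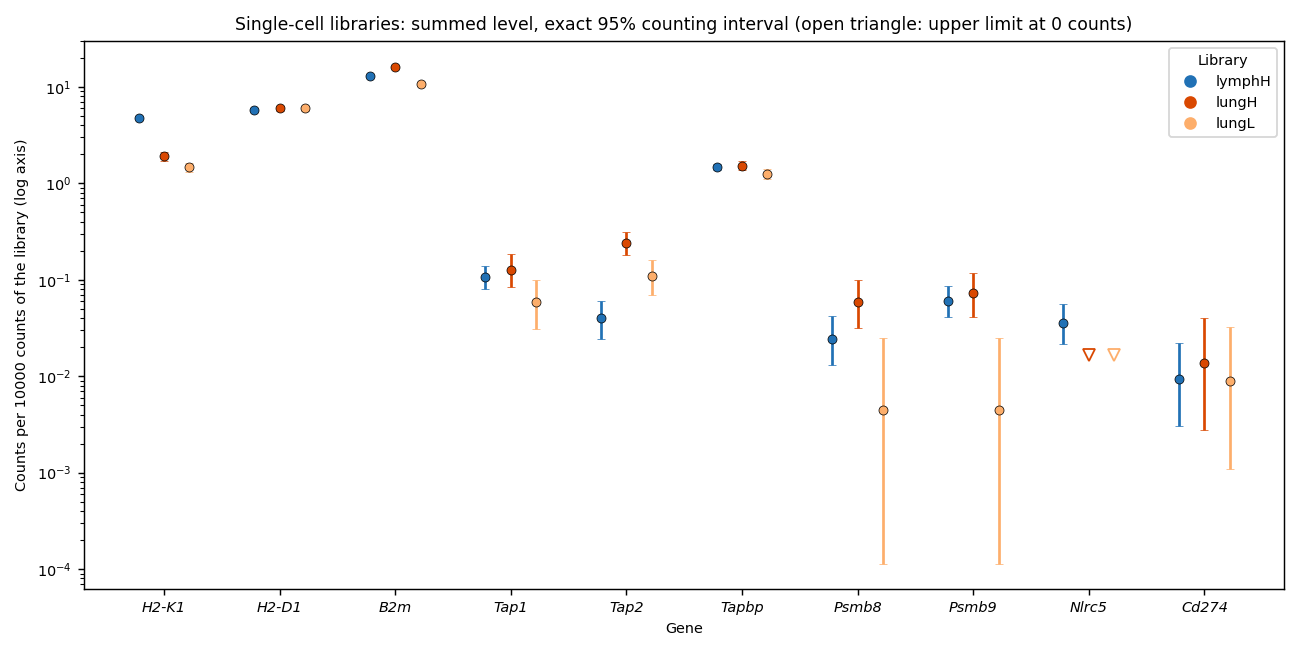
Summed level of each of the 10 genes (horizontal axis) in the 3 single-cell libraries, in counts per 10000 counts on a log axis, with exact 95% Poisson intervals as bars and open triangles for the upper limit where no count was found. H2-K1 is highest in lymphH and Tap2 in lungH, and the 3 H2-D1 intervals overlap.

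Psmb8 had 13 counts in lymphH, 13 in lungH and 1 in lungL, or 0.0246 (0.0131 to 0.0420), 0.0588 (0.0313 to 0.101) and 0.0045 (0.00011 to 0.0251) per 10000. Psmb9 had 32, 16 and 1 counts, or 0.0605 (0.0414 to 0.0854), 0.0724 (0.0414 to 0.118) and 0.0045 (0.00011 to 0.0251) per 10000. All 13 Psmb8 counts of lungH came from 3 cells, with 6 in one of them, so its interval is too narrow, and as a mean of per-cell values Psmb8 was higher in lymphH (0.0166) than in lungH (0.0113 per 10000). The lungH to lungL ratio was 16.1 for Psmb9 with a counting interval of 2.50 to 674, and 13.1 for Psmb8 (1.96 to 555). Against lymphH, lungL was lower for Psmb9 (lymphH to lungL ratio 13.4, 2.25 to 547), and for Psmb8 the interval of this ratio included 1 (5.46, 0.820 to 232). The count ratio of Psmb8 to Psmb5 was 0.0168 (0.0089 to 0.0289) in lymphH, 0.0277 (0.0146 to 0.0478) in lungH and 0.0032 (0.000082 to 0.0182) in lungL. The intervals of lymphH and lungH overlapped, so these ratios give no order of the 2, while in bulk LN CD44high (0.152 and 0.121) lay above lung CD44high cells (0.0413 and 0.0205). Nlrc5 had 19 counts in lymphH (0.0359 per 10000, 0.0216 to 0.0561) and none in lungH or lungL, where 3 counts would be 0.0136 and 0.0135 per 10000. The lymphH level was 2.65 and 2.66 times these limits, and with the counting error of both libraries included the exact 95% intervals of its ratio to lungH and to lungL began at 1.95 and 1.96. Cd274 had 5, 3 and 2 counts, too few to order the libraries.

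The share of cells with a count was below what an even spread of the counts by cell depth would give for the abundant genes. B2m was found in 44.8% of lymphH cells (42.9% to 46.8%, exact binomial), against 57.2% for an even spread, in 47.6% of lungH cells (44.8% to 50.4%) against 65.4%, and in 71.3% of lungL cells (66.2% to 76.0%) against 80.5%. H2-K1 was found in 20.4%, 11.6% and 31.6% of cells, against 31.4%, 20.1% and 46.5%. Since lungL cells were deeper, cells with at least 1000 counts were thinned to 1000, leaving out 2256 lymphH, 1014 lungH and 110 lungL cells. H2-K1 was then found in 38.9% of 306 lymphH cells (33.4% to 44.6%), 15.8% of 222 lungH cells (11.2% to 21.2%) and 11.3% of 238 lungL cells (7.61% to 16.1%). H2-D1 was found in 42.5% (36.9% to 48.2%), 50% (43.2% to 56.8%) and 39.5% (33.2% to 46.0%), and B2m in 71.9%, 69.4% and 59.2%. At equal depth, therefore, H2-K1 was found in more lymphH than lung cells, as its summed level was. No cell type that should lack class I was present to set a background share for free RNA.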

How the data were processed

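Bulk RNA-seq of 14 libraries was made by the authors with a modified SMART-seq2 protocol and Nextera XT, aligned with STAR to mm10 and quantified with RSEM on a GENCODE annotation, and the authors deposited TPM values (transcript abundance scaled for length and depth, without read counts, so depth per library is unknown beyond a stated minimum). The 3 single-cell libraries were made by 3′ tagging in droplets and quantified with kallisto, and the authors deposited raw counts per gene and barcode (3297 barcodes and 5690795 counts in lymphH, 3623 and 3195105 in lungH, 2808 and 2987182 in lungL). Symbols came from the row names of the lungH matrix, and positions from GENCODE vM21 (GRCm38). Cells with over 250 genes and under 10% mitochondrial counts were kept. The cell numbers that the study states are lower than those kept here. No doublet caller was run, and barcodes are numbered within each library, so shared barcodes could not be counted.

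Genes at 1 TPM or more in at least 2 of 14 libraries were tested, 15348 of 55450. Values were log2(TPM + 1), fitted as 7 group means (7 residual degrees of freedom) with limma 3.58.1 (trend) in R 4.3.3, with Benjamini-Hochberg adjustment over all tested genes. The script was tested on simulated data. With 2 libraries per group, an exact permutation test cannot go below p = 0.333. A DEG was a changed gene with an absolute log2 fold change over 2. The comparison across organs used 12 libraries with organ as a term. Single-cell levels are summed counts per 10000 with exact Poisson intervals (Python 3.11, scipy), and gene lists, members and tests were chosen with earlier results of these data known. Named genes are all 10 members, 8 further genes fixed by rule (Psmb5, Psmb6, Psmb7, Psmb10, Irf1, Ciita, Pdcd1lg2 and 1 that is not reported here), the changed genes with the largest differences (up to 3) of each list in the comparisons described, and the 3 genes most correlated with each member. Genes beyond these that illustrate a list (H60b, Ulbp1, Epcam, Dcn, Lyz2 and Ptprc) or were admitted by the filter through 1 group (Raet1d, Raet1e, H60c, Gbp6 and Iigp1) were chosen after their values were seen. The alternatives were an added 0.1 TPM, other filters on low TPM, median ratio scaling, a replicate block, only the compared groups in the fit, and leaving out each library. Replicate numbers were not taken as pairs. The authors' own edgeR comparisons were not used.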

Additional observations from a re-analysis of the deposited data

Results flagged for a closer look

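Tap2 and Psmb9 were picked out by a test of the difference between organs in the same contrast. The CD44high minus CD44low difference of Tap2 was larger in lung than in LN by 2.74 on the log2 scale (adjusted p = 0.0043, limma) and larger than in BM by 2.26 (adjusted p = 0.013). In lung both CD44high libraries (161 and 143 TPM) were above both CD44low libraries (22.4 and 18.9 TPM), while in LN the groups overlapped and in BM both CD44high libraries (20.04 and 15.1 TPM) were above both CD44low libraries (13.2 and 9.82 TPM), as in lung. The Tap2 difference from BM was not called with median ratio scaling (2.01, adjusted p = 0.059) or without BM CD44high replicate 2, lung CD44low replicate 2 or lung CD44high replicate 1. That of Psmb9 was larger in lung than in LN by 2.56 (adjusted p = 0.026), with 11.2 and 12.1 TPM in lung CD44high against 1.31 and 0.46 TPM in lung CD44low cells, and did not pass against BM (2.16, adjusted p = 0.061). The Psmb9 difference from LN was not called with median ratio scaling, with only the compared groups in the fit, or without either LN CD44high library, lung CD44low replicate 2 or either lung CD44high library, and was 1.75 and 3.37 without LN CD44low replicate 2 and replicate 1. Fibroblast markers fell in the same lung contrast (Dcn 4091 and 4315 TPM in CD44low, 166 and 78.9 TPM in CD44high cells), and their part in both differences was not tested.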

How the results depend on the processing

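No called difference of a gene turned its sign under any setting tried. Counts of called genes moved by over 1.5 times as follows, and smaller moves, of 1 gene each, are given after these. With the added requirement of an absolute log2 fold change over 2, there was 1 called gene in BM CD44low against MFP, 1 in BM CD44high against MFP, 2 in lung CD44high against CD44low and 3 in lung against LN and BM (2, 3, 4 and 7 without it). With 0.1 TPM added in place of 1, there were 2 in LN CD44low and 2 in LN CD44high against MFP, and 2 in lung minus BM. With at least 5 TPM required, 1 was called in BM CD44low against MFP. With median ratio scaling, 5 were called in BM CD44high against MFP, 1 in lung minus LN and 0 in lung minus BM, where Tap2 stood at 2.01 (adjusted p = 0.059). With only the compared groups in the fit, 2 were called in LN CD44high and 2 in lung CD44high against MFP, and 2 in lung minus BM. The smaller moves were, in lung CD44low against MFP (3 called), 2 with the log2 limit, no filter, median ratio scaling or the replicate block, and 4 with 0.1 TPM added or only the compared groups. In lung CD44high against MFP (4 called) they were 3 with the log2 limit, no filter, median ratio scaling or the block. In BM CD44high against MFP (3 called) there were 4 without a filter and 2 with at least 5 TPM, in lung CD44high against CD44low (4 called) 3 without a filter or with median ratio scaling, and in lung against LN and BM (7 called) 6 with at least 5 TPM or median ratio scaling. Nlrc5 could not be tested at 5 TPM. Leaving out 1 library at a time gave 1 to 2 calls in LN CD44low against MFP, 1 to 2 in LN CD44high, 1 to 4 in BM CD44low, 2 to 4 in BM CD44high, 2 to 5 in lung CD44low and 2 to 4 in lung CD44high against MFP, 0 to 1 in BM CD44high against CD44low, 2 to 4 in lung CD44high against CD44low, 1 to 3 in lung minus LN and 0 to 2 in lung minus BM. H2-K1 between the lung groups was not called without a filter on low TPM (adjusted p = 0.054) or with median ratio scaling (0.071). The cause of these shifts was not tested, apart from the fewer samples in fits that leave some out.

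Samples with the same replicate number showed only weak shared deviations (correlations of −0.19 to 0.17 over 21 pairs of groups, 3 of them over 0.1). These cannot decide whether the numbers mark pairs, since samples of the same mouse need not deviate together. The numbers were not taken as pairs. A replicate block gave 2 called genes in place of 3 in lung CD44low and 3 in place of 4 in lung CD44high against MFP, losing Tap2 (adjusted p = 0.053) and B2m (adjusted p = 0.061). In the single-cell libraries, the 4 genes with at least 100 counts in each moved by a factor of 0.973 to 1.03 without a mitochondrial limit, 0.982 to 1.02 with a limit of 20%, 0.997 to 1.19 with over 500 genes, 0.825 to 1.001 over all barcodes and 0.550 to 0.970 as a mean of per-cell values. With the genes of few counts included, the last 3 ranges were 0.619 to 1.34, 0.692 to 2.97 and 0.106 to 1.89. As a mean of per-cell values Tap1 was highest in lungL. With over 500 genes Psmb9 was higher in lymphH than in lungH.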
